A study of Mus musculus with 6 samples.

Results

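The genes described here are the cyclins, the cyclin-dependent kinases (CDKs), the E2F transcription factors and the retinoblastoma proteins that hold them, with the CDC25 phosphatases, WEE1 and a few markers of dividing cells, in mouse embryonic stem (ES) cells depleted of BRG1. They were taken by name: every gene name on the array that is a cyclin (Ccn and a letter), a numbered Cdk, Cdc2a (the older name of Cdk1, the mitotic CDK) or an E2f, and Rb1, Rbl1, Rbl2, Tfdp1, Tfdp2, Cdc25a, Cdc25b, Cdc25c, Wee1, Pcna, Mki67, Aurka, Aurkb and Plk1. This gave 54 genes of 27962 gene names, read by 105 probes. Of the 54, 53 were measured well enough to test; the other one, Ccnb3, was not well above background on any array.

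Cultured ES cells of an F1 background between 129 and C57BL/6 received a BRG1 siRNA or a scrambled control siRNA and were collected after 48 h, with 3 single-colour Agilent arrays per group and 500 ng of total RNA as the start of each labelling. BRG1, encoded by Smarca4, is the ATPase of SWI/SNF complexes, which move nucleosomes. The siRNA is the only difference between the groups that the labels name, and the way the cells were grown is given only as culture in vitro. Whether the 3 samples of a group were grown apart is not stated; the p-values then reflect array-to-array spread that may be technical only, and precision is limited by having 6 arrays.

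As background, a cell commits to copying its DNA when CDK4 or CDK6 with a D-type cyclin, and then CDK2 with cyclin E, phosphorylate the RB family and release E2F factors, which switch on replication genes. Cyclin A and cyclin B with CDK1 carry the cell through G2 and mitosis, where Aurora and Polo kinases act. Mouse ES cells are known for a short G1 phase, high cyclin E, low D-type cyclins and RB that stays largely phosphorylated.

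The 60-base probes that read the D-type cyclins, E2f1 and Ccnt1 were as follows, given by their first 30 bases. All are in lower case because no part is singled out. For Ccnt1 only the brightest probe is shown, and a dim second probe did not pass. The sequences are shown because Ccnd2 and E2f1 were each read by more than 1 probe at separate places in the transcript, with the same direction at each. Positions are those of the whole probe in the mm7 build, as in the deposited files; whether they lie in a coding or untranslated exon was not looked up, since no annotation of that build was used.
Ccnd1 (chr7_random:7568179-7568238): tgttttgtgttaattacagcattgtgctaa
Ccnd2, brightest probe (chr6:127163669-127163728): ccatcgatgattgcaactggaagcgtggga
Ccnd2, second probe (chr6:127173178-127173237): aagagaccatcccgctgactgcggaaaagc
Ccnd2, another probe (chr6:127154070-127154129): gtctctccgtcgcatactcttgctgactaa
Ccnd3 (chr17:45735858-45735917): gggtcttaagggtgccgtggtcattttaat
E2f1, brightest probe (chr2:154301126-154301185): cgggaatgaaggtgaacacatctgtatgtg
E2f1, second probe (chr2:154300864-154300923): ctttaatggagcgtttatttatttatcgag
Ccnt1 (chr15:98529356-98529415): tggggctaatggtcacaacgcaactcagtc

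Each value below is a log2 processed signal from which the 75th percentile over that array's non-control spots was taken, so 0 is the signal of a fairly bright spot, and a change is the BRG1 siRNA mean minus the control mean. Between 60.9% and 75.3% of spots per array were well above background. Adjusted p-values are from limma over all 17758 genes tested, two-sided, with a threshold of 0.05. The first slide carried all 3 control arrays together with BRG1 siRNA replicate 1, and the other BRG1 siRNA arrays shared a second slide. Changes are therefore also given with the slide as a block; that estimate is the same as the one from the first slide only. Smarca4 itself, the target, read 4.32, 4.36 and 4.23 on the control arrays and 3.76, 3.74 and 3.60 on the BRG1 siRNA arrays. It fell by 0.60 on the log2 scale (SE 0.06, adjusted p = 0.00365), to 65.8% of control; blocking on the slide gave -0.54 (adjusted p = 0.0425), and the first slide alone -0.54 (adjusted p = 0.0627).

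Cell type markers were read beside these genes. All 11 ES cell markers on the array were well above background on all 6 arrays, and their summed linear signal was 391 to 403 times the 75th percentile in controls and 378 to 392 times in BRG1 siRNA arrays. Of the 11, 5 (45.5%) passed the limma test described above, where 23.3% of all genes tested did: Nanog, Klf4, Utf1 and Lin28 rose and Pou5f1 fell. With the slide as a block 1 of them (Utf1) passed, with median scaling 0 (4 with an unadjusted p under 0.05), and with spike-in scaling 5 rose and 0 fell. Of the 18 fibroblast markers on the array (fibroblasts serve as feeder cells in many ES cultures), 15 were well above background on all 6 arrays; the sums were 72.7 to 76.3 in controls and 65.0 to 66.5 after BRG1 siRNA, and 6 of 16 tested fell and 2 rose, beside the same 23.3% of all genes called. The 6 blood and immune markers on the array summed to 0.697 to 0.880 and 0.833 to 0.900. No marker on the array was below background on all 6 arrays. The part of fibroblast RNA in the results was not tested, and in such bulk RNA fewer cells of a type and less RNA per cell cannot be told apart.

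A minority of the cell cycle regulators passed the test after BRG1 siRNA, and their changes were mostly small. Of the 53 genes tested, 16 passed the threshold: 5 rose (E2f1, Ccnt1, Cdk5, Ccnd3 and Cdk2) and 11 fell (Ccnd2, Ccnd1, Ccng2, Ccne2, Cdk6, Aurka, Aurkb, Ccnh, Ccng1, Plk1 and Ccnb2), while 37 did not pass. That is 30.2% called, where 23.3% of all tested genes were called, 9.87% as raised and 13.4% as lowered. The median change of the 53 was -0.037, and that of all genes tested was also -0.037. The largest changes were -0.80 (Ccnd2) and 0.59 (E2f1). In 36 of the 53 genes (67.9%) the 3 BRG1 siRNA arrays lay all above or all below the 3 controls, which was so for 44.0% of the genes tested that had a value on every array.

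Of these calls, 4 held with the slide as a block, a fit that called 7.84% of all genes (Ccnd2 and Ccnd1 lower, E2f1 and Ccnt1 higher). On the first slide alone, with 1 BRG1 siRNA array, the median change of the 53 was -0.07. That of all genes, with the slide as a block, was -0.066. Leaving out control replicates 1, 2 and 3 in turn left 8, 8 and 5 members called. Leaving out BRG1 siRNA replicates 1, 2 and 3 left 6, 8 and 13. Of all 17758 genes, the first 3 of these fits called 2550, 2408 and 1668, and the other 3 called 2309, 2147 and 4416. Ccnd1, Ccnd2, Ccnt1, Cdk5 and E2f1 were called in each of these 6 fits. The scaling mattered for direction: with spike-in probes as the reference, which put the median of all genes at 0.16 in place of -0.037, 7 members rose and 1 (Ccnd2) fell, and of all genes 3475 were called higher and 643 lower in place of 1752 and 2387; with the 2 quantile normalizations 7 members rose and 10 fell with normexp, and 5 rose and 8 fell without it; with the array median as the reference only Ccnd2, E2f1 and Ccnt1 were called, in the directions given above.

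**Figure D1:**
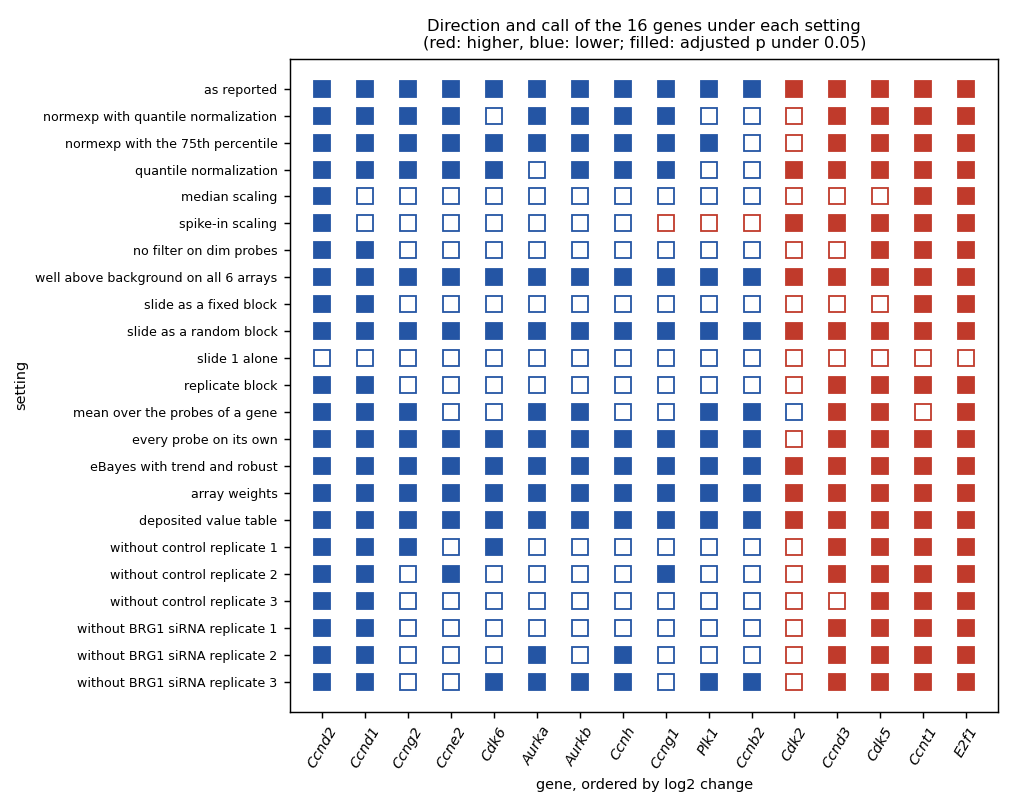
Direction (red higher, blue lower after BRG1 siRNA) and call (filled, adjusted p past the threshold) of the 16 genes, in columns from the lowest to the highest change, under each setting in rows. The columns of Ccnd2 and E2f1 are filled in every row but the first slide alone, and 3 genes turn red from blue with spike-in scaling.

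**Figure D2:**
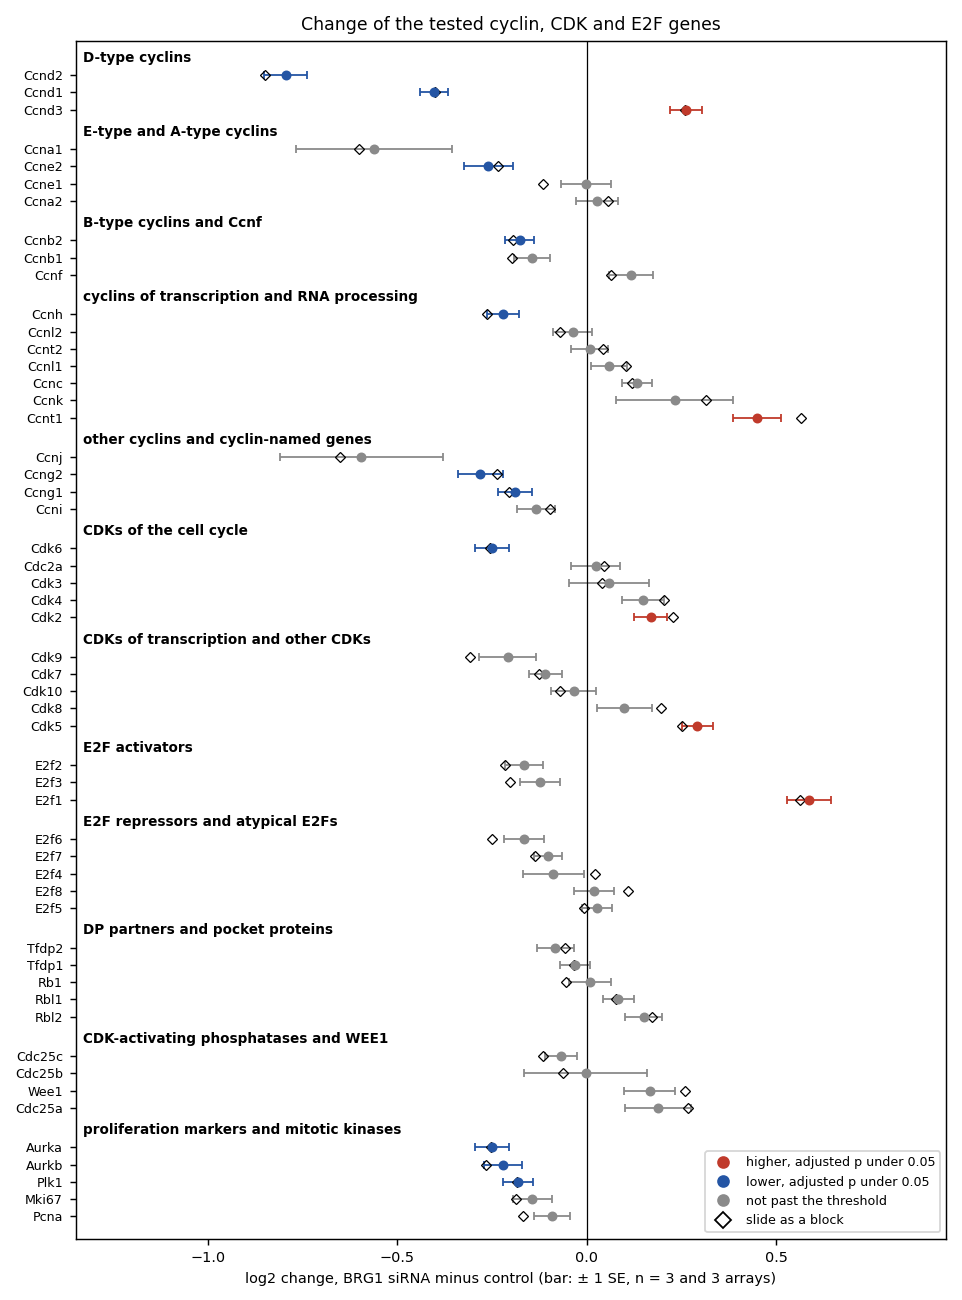
Log2 change (BRG1 siRNA minus control, horizontal axis, ± 1 SE, 3 arrays a group) of the 53 tested genes by role; red and blue points passed the adjusted threshold, grey did not, and open diamonds are the change with the slide as a block. Ccnd2 at -0.80 and E2f1 at 0.59 stand at the ends of the scale.

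The D-type cyclins, the partners of CDK4 and CDK6, went in both directions. All 3 passed the test, where 23.3% of all genes did, with Ccnd1 and Ccnd2 lower and Ccnd3 higher after BRG1 siRNA. Ccnd2 read 1.77, 1.61 and 1.66 on the controls and 0.83, 0.94 and 0.88 after BRG1 siRNA. It fell by 0.80 (SE 0.06, adjusted p = 0.00165), to 57.6% of control, and by 0.85 with the slide as a block (adjusted p = 0.0238). All of its BRG1 siRNA arrays lay far below all of its controls. Its other probes read changes of -0.87 and -0.90, so the 3 sequences above gave 1 direction along the transcript.

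Ccnd1 read 1.92, 1.93 and 1.94 on the controls and 1.53, 1.55 and 1.50 after BRG1 siRNA, the mean of 10 spots per array. The change was -0.40 (SE 0.04, adjusted p = 0.00256), or 75.6% of control, and -0.40 with the slide as a block (adjusted p = 0.0337). The groups were apart, and spread within each group was small; the call was lost with median and with spike-in scaling. Ccnd3 read 3.50, 3.53 and 3.50 on the controls and 3.77, 3.82 and 3.73 after BRG1 siRNA. It rose by 0.26 (SE 0.04, adjusted p = 0.0107), to 120% of control, and lost the call with the slide as a block (0.26, adjusted p = 0.0751), with median scaling, with no filter on dim probes and without control replicate 3 (adjusted p up to 0.0593).

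Ratios between genes on the same array are free of the scaling between arrays; the pairs were chosen after their values were seen, and a ratio's own level has no meaning across probes. The log2 ratio of Ccnd3 to Ccnd2 was 1.74, 1.92 and 1.84 on the controls and 2.94, 2.88 and 2.85 after BRG1 siRNA, a shift of 1.06. For Ccnd3 to Ccnd1 the shift was 0.67, from 1.56 to 1.60 in controls to 2.23 to 2.27. Neither pair of ranges overlapped, and 0.1 is the smallest p that an exact two-sided permutation of 3 against 3 arrays can give. That outcome was fixed beforehand, since on the BRG1 siRNA arrays Ccnd3 lay above all its controls and Ccnd1 and Ccnd2 below theirs. On each BRG1 siRNA array the ratio was thus higher for Ccnd3 against both other D-type cyclins, under any scaling that shifts a whole array.

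**Figure D3:**
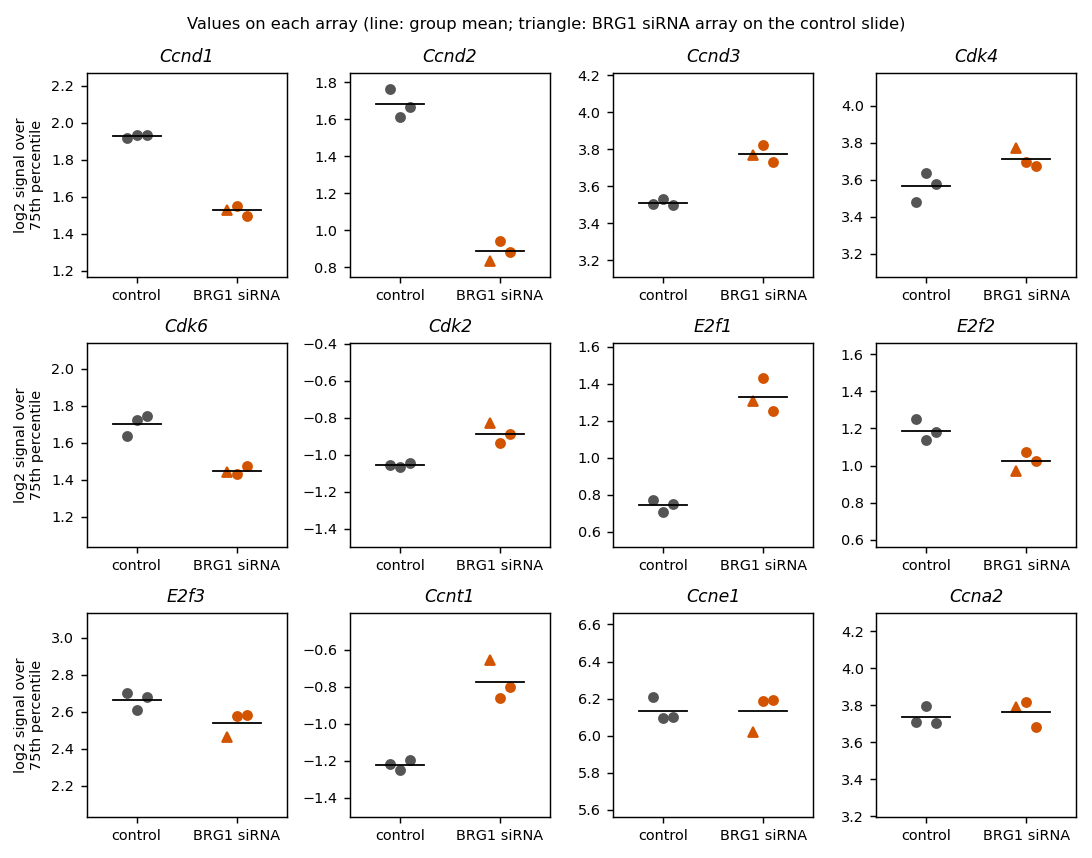
Values of 12 genes on each of the 6 arrays (vertical axis, log2 signal over the array's 75th percentile, with the same span in every panel; lines are group means of 3 arrays). Ccnd2, Ccnd1 and E2f1 show no overlap between groups, Ccne1 and Ccna2 overlap, and the triangle marks the BRG1 siRNA array on the slide of the controls.

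Among their kinase partners, Cdk6 fell and Cdk4 did not pass the test. Cdk6 read 1.63, 1.72 and 1.74 on the controls and 1.44, 1.43 and 1.47 after BRG1 siRNA, a change of -0.25 (SE 0.05, adjusted p = 0.0154; with the slide as a block -0.26 and 0.0887). Its groups were apart, and a second probe also passed, at -0.22. Cdk4 read 3.48, 3.63 and 3.58 and then 3.77, 3.69 and 3.67, a change of 0.15 (adjusted p = 0.114). It was called higher with normexp and quantile normalization only. The log2 ratio of Cdk4 to Cdk6 shifted by 0.40, from 1.83 to 1.91 in controls to 2.20 to 2.33. That these ranges lay apart was fixed beforehand, since on the BRG1 siRNA arrays Cdk4 lay above all its controls and Cdk6 below all of its own.

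The other cell cycle kinases had smaller changes. Cdk2, the partner of cyclins E and A, read -1.05, -1.07 and -1.04 on the controls and -0.83, -0.94 and -0.89 after BRG1 siRNA. It rose by 0.17 (SE 0.04, adjusted p = 0.0442), the weakest of the 16 calls: it was lost when any 1 of the 6 arrays was left out (adjusted p from 0.0676 to 0.134), with the slide as a block (0.23, adjusted p = 0.0736) and when every probe was tested on its own, and the mean over its probes was -0.08. Cdc2a read 3.43, 3.58 and 3.52 on the controls and 3.56, 3.60 and 3.44 after BRG1 siRNA, a change of 0.02 (SE 0.06) with overlapping groups. Cdk3 had a change of 0.06. In all, 1 of the 5 cell cycle CDKs rose, 1 fell and 3 did not pass, where 23.3% of all genes passed.

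Cyclins E and A, which drive entry into and passage through S phase, had 1 call among 4, where 23.3% of all genes were called. Ccne1, a hallmark of ES cells, read 6.21, 6.09 and 6.10 on the controls and 6.02, 6.19 and 6.19 after BRG1 siRNA, a change of -0.0026 (SE 0.07) with overlapping groups. A second probe of Ccne1 at the same mm7 position read 0.28 and did not pass. Ccne2 read -0.48, -0.57 and -0.39 and then -0.71, -0.82 and -0.69. It fell by 0.26 (SE 0.06, adjusted p = 0.0379), and lost the call with the slide as a block (-0.23, adjusted p = 0.193) and in each fit with 1 array left out except that without control replicate 2 (adjusted p from 0.0488 to 0.122 over these fits). Ccna2 read 3.71, 3.80 and 3.70 and then 3.79, 3.82 and 3.68, a change of 0.03 (SE 0.06), again with overlapping groups. Ccna1, a germ cell cyclin, was dim and varied (change -0.56, SE 0.21, adjusted p = 0.104).

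A B-type cyclin, Ccnb2, and the mitotic kinases Aurka, Aurkb and Plk1 fell slightly, by at most 1.19-fold (Aurka). Ccnb2 read 5.12, 5.13 and 5.08 on the controls and 4.91, 4.95 and 4.94 after BRG1 siRNA, a fall of 0.18 (SE 0.04, adjusted p = 0.0251; with the slide as a block -0.20 and 0.0972). Ccnb1 read 4.25, 4.21 and 4.24 and then 4.03, 4.16 and 4.07, a change of -0.15 that did not pass (adjusted p = 0.0798), though its other probes passed in the fit over probes, at -0.20 and -0.25. Ccnb1 was also called lower with the mean over its probes and with the trended, robust limma fit. Both genes had all BRG1 siRNA arrays below all controls. Ccnf, a substrate receptor of an SCF ubiquitin ligase, had a change of 0.12 (adjusted p = 0.198). It was called higher with both normexp settings and with array weights.

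Aurka, the centrosomal Aurora kinase, read 5.69, 5.68 and 5.69 on the controls and 5.43, 5.50 and 5.38 after BRG1 siRNA. Its fall was 0.25 (SE 0.05, adjusted p = 0.0155; with the slide as a block -0.25 and 0.0911). Aurkb, the Aurora kinase of the chromosomal passenger complex, read 1.66, 1.58 and 1.55 and then 1.33, 1.37 and 1.43, a fall of 0.22 (SE 0.05, adjusted p = 0.0297; with the slide as a block -0.27 and 0.0887). Plk1, the Polo kinase of mitotic entry, read 5.51, 5.50 and 5.51 and then 5.32, 5.37 and 5.29, a fall of 0.18 (SE 0.04, adjusted p = 0.0263; with the slide as a block -0.18 and 0.121). No group of arrays overlapped with the other in these 3 genes.

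The general markers of dividing cells did not pass, although Mki67 was called lower with array weights (-0.18, limma adjusted p = 0.0194). Mki67, the antigen Ki-67, read 4.58, 4.66 and 4.68 on the controls and 4.45, 4.47 and 4.56 after BRG1 siRNA, a change of -0.14 (adjusted p = 0.105). A second Mki67 probe read 0.0061 and did not pass. Pcna, the sliding clamp of DNA polymerase, read 6.15, 6.16 and 6.14 and then 5.98, 6.11 and 6.08, a change of -0.09 (adjusted p = 0.221). In all, 3 of 5 in this role group fell, where 13.4% of all tested genes were called lower. With the slide as a block 0 of the 5 were called. At the brightest probe all 5 values were below 0, as were those of 10146 of all 17758 genes. With spike-in scaling, though, Plk1, Mki67 and Pcna were above 0 and Ccnb1 and Ccnb2 too, with 0.02 for Plk1 and 0.02 for Ccnb2. Pcna was also above 0 with both quantile normalizations. Of the calls of Aurka, Aurkb, Plk1 and Ccnb2, none held without control replicate 1, 2 or 3 or without BRG1 siRNA replicate 1; Aurka held without BRG1 siRNA replicate 2 or 3, and the other ones only without BRG1 siRNA replicate 3. Over these 6 fits the adjusted p ran from 0.0271 to 0.0732 for Aurka, from 0.0333 to 0.0941 for Aurkb, from 0.0466 to 0.107 for Plk1 and from 0.043 to 0.0851 for Ccnb2.

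Sequences upstream of 5 of these mitotic genes are shown because B-type cyclins and mitotic kinases are known for promoters with CCAAT boxes and cell cycle homology regions (CHR, TTTGAA). Each is the 150 bases before the start of transcription, from RefSeq in the GRCm38.p6 build, with both motifs on either strand in capitals.
Ccnb1 (chr13:100786487-100786636, minus strand): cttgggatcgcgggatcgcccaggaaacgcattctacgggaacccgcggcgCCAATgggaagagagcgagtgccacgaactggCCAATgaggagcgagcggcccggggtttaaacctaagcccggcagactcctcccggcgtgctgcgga
Ccnb2 (chr9:70421555-70421704, minus strand): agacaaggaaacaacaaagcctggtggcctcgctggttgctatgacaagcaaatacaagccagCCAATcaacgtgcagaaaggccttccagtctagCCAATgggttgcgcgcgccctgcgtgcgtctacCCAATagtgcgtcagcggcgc
Aurka (chr2:172370571-172370720, minus strand): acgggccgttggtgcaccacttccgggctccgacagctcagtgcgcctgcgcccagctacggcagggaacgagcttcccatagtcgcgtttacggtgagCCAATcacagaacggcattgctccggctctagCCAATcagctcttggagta
Plk1 (chr7:122159285-122159434, plus strand): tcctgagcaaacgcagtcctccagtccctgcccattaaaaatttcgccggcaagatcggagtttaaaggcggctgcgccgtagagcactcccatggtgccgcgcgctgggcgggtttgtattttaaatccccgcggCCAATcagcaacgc
Cdc2a, now Cdk1 (chr10:69352913-69353062, minus strand): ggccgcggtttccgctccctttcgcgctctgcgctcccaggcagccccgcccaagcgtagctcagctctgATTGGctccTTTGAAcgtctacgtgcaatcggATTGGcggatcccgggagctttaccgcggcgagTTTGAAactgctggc

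Ccnb2 holds 3 CCAAT boxes in this window, Ccnb1, Aurka and Cdc2a 2 each and Plk1 1; Cdc2a, which did not pass the test, is the gene of the 5 with the CHR letters in these 150 bases. In the longer window of the RefSeq table, described next, Ccnb2, Aurka and Plk1 hold them too. Of the 54 genes, 41 had an entry in the RefSeq promoter table, where each window runs from 250 bases before to 50 after a start. CCAAT, on either strand, was in the windows of 25 of the 41 (61.0%) and of 41.1% of all 27025 genes in the table; CHR was in 11 (26.8%) against 20.2%. By call, CHR was in 3 of the 6 lowered genes with an entry, 0 of 4 raised and 8 of 30 not called, and CCAAT in 4, 2 and 19 of them. The E2F site, searched as TTTCGCGC, TTTGGCGC, TTTCCCGC or TTTGCCGC on either strand, was in 8 of the 41 (19.5%) against 2.60% of all genes. The 8 are Cdk2 among the raised genes, none of the 6 lowered genes with an entry, and Cdc2a, Cdc25a, E2f2, E2f3, E2f7, Rbl1 and Tfdp1 among those not called. The searched words do not contain one another, and a match is a description of the letters only.

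E2f1 rose and no other E2F factor passed the test, though E2f2 and E2f3 were called lower with both normexp settings. The activator E2f1 read 0.77, 0.71 and 0.75 on the controls and 1.31, 1.43 and 1.25 after BRG1 siRNA. It rose by 0.59 (SE 0.06, adjusted p = 0.00305), 1.5-fold, and by 0.56 with the slide as a block (adjusted p = 0.039). Every BRG1 siRNA array was above every control by more than the spread within either group, and the second probe, a mean of 10 spots, rose by 0.37. This call held under each setting run except the first slide alone.

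The other activators had changes below 0 at their brightest probe that did not pass as reported. E2f2 read 1.25, 1.14 and 1.18 on the controls and 0.97, 1.07 and 1.02 after BRG1 siRNA, a change of -0.17 (adjusted p = 0.0657). E2f3 read 2.70, 2.61 and 2.68 and then 2.46, 2.58 and 2.58, a change of -0.12 (adjusted p = 0.154). The other tested E2f3 probes read 0.08 and -0.04, and neither passed. At the brightest probe of both genes all BRG1 siRNA arrays were below all controls, but with spike-in scaling their changes were 0.03 and 0.08. With normexp and quantile normalization E2f2 was at -0.22 (adjusted p = 0.0204) and E2f3 at -0.18 (adjusted p = 0.0437) with limma, and E2f2 was also called lower with the trended, robust fit and with array weights. The log2 ratio of E2f1 to E2f2 shifted by 0.75 and that of E2f1 to E2f3 by 0.71, with no overlap between groups in either. The lack of overlap was fixed beforehand, since E2f1 lay above all its controls and E2f2 and E2f3 below theirs.

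None of the 5 repressor and atypical E2Fs passed with limma; 2 had an unadjusted p under 0.05, and E2f6 passed with the trended, robust limma fit and with array weights. E2f4, the main repressor with p107 and p130, read 0.50, 0.29 and 0.42 on the controls and 0.42, 0.21 and 0.31 after BRG1 siRNA (change -0.09). E2f5 read 1.60, 1.60 and 1.56 and then 1.58, 1.65 and 1.61 (change 0.03). E2f6, which works with Polycomb proteins, read 2.46, 2.53 and 2.48 and then 2.24, 2.35 and 2.38 (change -0.16, adjusted p = 0.0754). The groups of E2f6 were apart and those of E2f4 and E2f5 overlapped. Of the atypical factors, which bind DNA without a DP partner, E2f7 read 1.29, 1.31 and 1.30 and then 1.16, 1.21 and 1.22 (change -0.10), while a dimmer E2f7 probe passed the other way, at 0.24. E2f8 read 0.53, 0.51 and 0.48 and then 0.61, 0.47 and 0.49 (change 0.02) with overlap.

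The RB family and the DP partners had no call among 5 genes; 1 had an unadjusted p under 0.05, and Rbl2 passed with both normexp settings, spike-in scaling and array weights. Rb1 read 0.28, 0.14 and 0.18 on the controls and 0.14, 0.24 and 0.24 after BRG1 siRNA (change 0.0080, SE 0.06), and its groups overlapped. Rbl1 (p107) read -1.04, -0.94 and -0.98 and then -0.91, -0.90 and -0.90 (change 0.08). Rbl2 (p130) read -1.30, -1.42 and -1.37 and then -1.19, -1.18 and -1.26 (change 0.15, adjusted p = 0.0797), and its second probe passed in the fit over probes, at 0.16. Rbl1 and Rbl2 had all BRG1 siRNA arrays above all controls. Tfdp1, the common DP partner, read between 3.96 and 4.05 on all 6 arrays (change -0.03), with overlapping groups, and Tfdp2 had a change of -0.08. The other tested Tfdp2 probes read 0.15 and 0.08, and neither passed.

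The phosphatases that activate CDKs and WEE1, the kinase that restrains them, had no call among 4 genes and none with an unadjusted p under 0.05. Cdc25a read 0.04, 0.08 and -0.02 on the controls and 0.30, 0.32 and 0.04 after BRG1 siRNA (change 0.19, adjusted p = 0.178). BRG1 siRNA replicate 3 lay within the control range. Cdc25a passed without that array, and also with array weights. Wee1 read -1.84, -1.76 and -1.68 and then -1.50, -1.68 and -1.60 (change 0.17, adjusted p = 0.135). Cdc25b and Cdc25c had changes of -0.0032 and -0.07. A second Cdc25b probe passed in the fit over probes, at -0.18.

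Cyclins and CDKs outside the core cycle had both directions. Ccnt1, the cyclin of the elongation factor P-TEFb, read -1.22, -1.25 and -1.20 on the controls and -0.66, -0.86 and -0.80 after BRG1 siRNA. It rose by 0.45 (SE 0.06, adjusted p = 0.00737), to 136% of control, and by 0.57 with the slide as a block (adjusted p = 0.026). Its groups were far apart; a dim second probe read 0.23 (SE 0.23) and did not pass, and the mean of both lost the call. Its kinase Cdk9 had a change of -0.21 (adjusted p = 0.1), and the related Ccnt2 and Ccnk of 0.0075 and 0.23, without passing. Cdk9 was called lower with the trended, robust fit and with array weights. A second Ccnk probe read -0.18 and did not pass.

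Ccnh, the cyclin of the CDK-activating kinase, read 4.04, 4.09 and 4.05 on the controls and 3.80, 3.88 and 3.84 after BRG1 siRNA, a fall of 0.22 (SE 0.04, adjusted p = 0.0179; with the slide as a block -0.26 and 0.0621). Its groups were apart, but of its 3 other probes the dimmest read 0.20 and none passed. Its partner Cdk7 had a change of -0.11 (adjusted p = 0.129), and a second Cdk7 probe read 0.10 and did not pass. Cdk5, an atypical CDK best known in neurons, read -0.38, -0.38 and -0.35 and then -0.12, -0.09 and -0.03. It rose by 0.29 (SE 0.04, adjusted p = 0.00766; with the slide as a block 0.25 and 0.0665), with no overlap, and lost the call with median scaling too.

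Ccng1, a p53 target, read 3.43, 3.32 and 3.42 on the controls and 3.18, 3.21 and 3.20 after BRG1 siRNA, a fall of 0.19 (SE 0.05, adjusted p = 0.0354; with the slide as a block -0.21 and 0.129). Ccng2, a cyclin linked to cell cycle arrest, read -0.20, -0.11 and -0.02 and then -0.35, -0.42 and -0.41, a fall of 0.28 (SE 0.06, adjusted p = 0.025; with the slide as a block -0.24 and 0.157). Both had separate groups. With 1 array left out, Ccng1 was called only without control replicate 2 and Ccng2 only without control replicate 1, Cdk6 only without control replicate 1 or BRG1 siRNA replicate 3, and Ccnh only without BRG1 siRNA replicate 2 or 3. The adjusted p over these fits ran from 0.0434 to 0.134 for Ccng1, from 0.028 to 0.0859 for Ccng2, from 0.0243 to 0.0737 for Cdk6 and from 0.0354 to 0.0758 for Ccnh. With spike-in scaling Ccng1 was at 0.01. The remaining genes, Ccnc, Ccni, Ccnj, Ccnl1, Ccnl2, Cdk8 and Cdk10, did not pass, with changes from -0.60 (Ccnj, SE 0.22) to 0.13 (Ccnc). Ccnc was called higher with spike-in scaling, with the trended, robust fit and with array weights, while its second probe read -0.11 and did not pass.

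Probes of 1 gene did not always read alike. Of 98 member probes tested, 24 passed, 7 higher and 17 lower, where 19.6% of all 26258 probes passed. Of the 31 genes with more than 1 tested probe, 17 had probes of both signs, but 0 had probes called in opposite directions. Among the 16 called genes, 8 had another tested probe, and for 3 of these (Ccnd2, E2f1 and Cdk6) another probe was called the same way; the other 8 genes rest on 1 tested probe each.

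**Figure D4:**
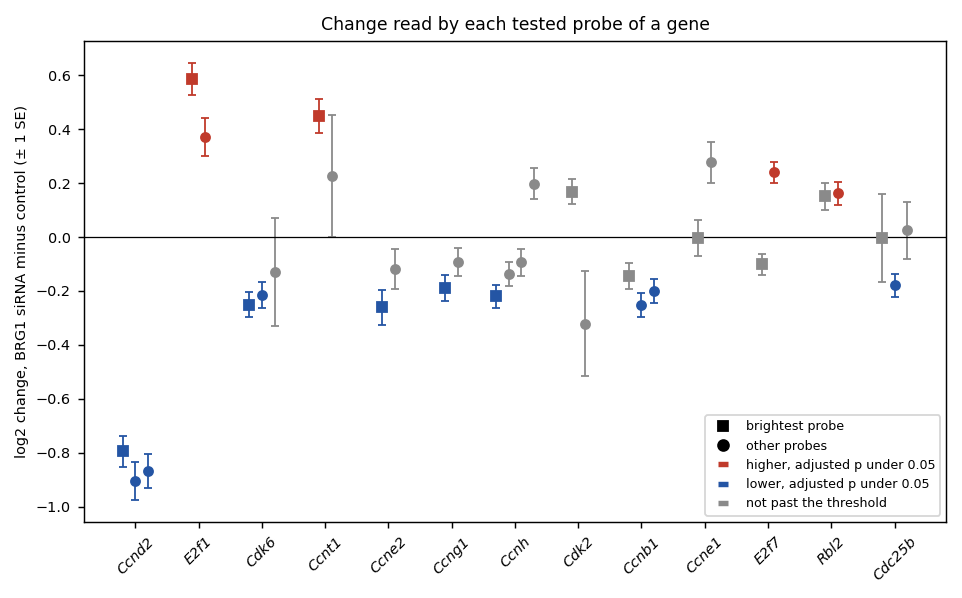
Log2 change (vertical axis, ± 1 SE, 3 arrays a group) read by each tested probe of 13 genes; squares are the brightest probe of a gene, and red or blue marks probes past the adjusted threshold over all probes. The 3 Ccnd2 probes lie between -0.80 and -0.90 and both E2f1 probes are above 0, while Ccne1, E2f7 and Cdk2 have probes on both sides of 0.

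Other genes of the pathway were counted from 4 lists. Of 45 DNA replication genes and E2F targets, 4 rose and 4 fell, with a median of 0.01: Pold1, the catalytic subunit of DNA polymerase delta, rose by 0.34 (adjusted p = 0.00431), while Tyms, thymidylate synthase, fell by 0.29 (0.0196) and Gmnn, geminin, by 0.27 (0.0424). These 8 calls are 17.8% of the list, beside 23.3% of all genes. With spike-in scaling 5 rose and 0 fell, with median scaling 1 rose and 0 fell, and leaving out 1 array left 1 (without control replicate 3) to 8 (without BRG1 siRNA replicate 3) called. Of 40 G2 and M phase genes, 1 rose and 5 fell (15.0%), with a median of -0.035; with spike-in scaling 5 rose and 1 fell, with median scaling 0 rose and 1 fell, and leaving out 1 array left 2 to 6 called, the fewest without control replicate 3. Birc5, survivin, fell by 0.49 (adjusted p = 0.00404), Cenpa, the centromeric histone, by 0.45 (0.0315), Nusap1, a spindle protein, by 0.36 (0.00567) and Cenpe, a mitotic kinesin, by 0.36 (0.0233).

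Among 21 checkpoint kinases and subunits of ubiquitin ligases, 5 rose and 3 fell (38.1%), with a median of 0.07; with spike-in scaling 8 rose and 0 fell, with median scaling 1 rose and 0 fell, and leaving out 1 array left 2 to 8 called, the fewest without control replicate 3. Btrc, a substrate receptor of an SCF ligase, rose by 0.48 (adjusted p = 0.00612), the checkpoint kinases Chek1 and Atm by 0.29 each (0.0124 and 0.005), and Anapc1, a subunit of the anaphase-promoting complex, fell by 0.25 (0.0307). Of 8 CDK inhibitors, 4 fell and 0 rose, beside 23.3% of all genes called, with a median of -0.23; 1 fell with median and with spike-in scaling, and leaving out 1 array left 2 to 4 called. Cdkn2a, the locus of p16 and p19ARF, fell by 1.11 (adjusted p = 0.00423), Cdkn1b, p27, by 0.55 (0.0183), Cdkn3, a phosphatase that acts on CDKs, by 0.49 (0.00365) and Cdkn1c, p57, by 0.29 (0.0246). With the slide as a block, Pold1, Tyms, Gmnn, Birc5, Nusap1, Cenpe, Btrc, Chek1, Atm, Cdkn2a and Cdkn3 of these genes remained called, with adjusted p from 0.0227 to 0.0463, and Cenpa, Anapc1, Cdkn1b and Cdkn1c did not (0.0588 to 0.161). Leaving out each array in turn kept the calls of Pold1, Birc5, Nusap1, Btrc, Atm, Cdkn2a and Cdkn3, and Chek1 lost its call without control replicate 3 (adjusted p = 0.0554). Tyms, Gmnn, Cenpa, Cenpe, Anapc1, Cdkn1b and Cdkn1c each lost theirs without control replicate 1, 2 or 3 and without BRG1 siRNA replicate 2, with adjusted p up to 0.0851, 0.137, 0.114, 0.0924, 0.113, 0.0676 and 0.0772. Of the genes that held in each fit, Nusap1 and Cdkn3 lost the call with median scaling and under the spike-in reference. Atm lost it with median scaling. Averaging a gene's probes removed the calls of Nusap1, Cdkn3, Tyms, Gmnn, Cenpa, Cenpe, Anapc1 and Cdkn1b. Under that averaging 3 replication genes rose and 2 fell, and 1 G2 and M phase gene rose and 1 fell. In the checkpoint list 4 rose and 1 fell, and of the CDK inhibitors 0 rose and 2 fell. With spike-in scaling the 4 medians were 0.21, 0.16, 0.27 and -0.03 in the order given here.

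**Figure D5:**
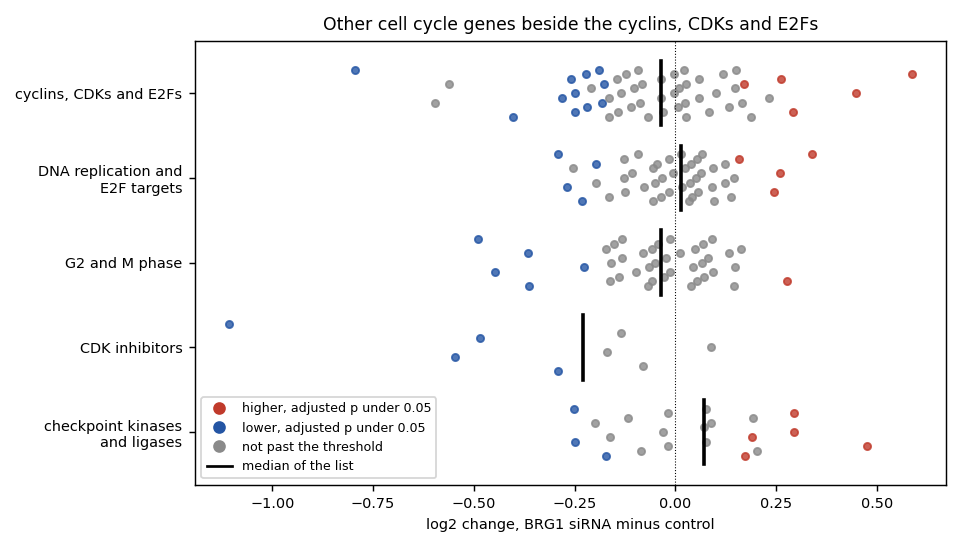
Log2 change (horizontal axis) of each tested gene of the cyclin, CDK and E2F set and of 4 other cell cycle lists; each point is a gene, coloured where it passed the adjusted threshold, and black bars are medians. The set and the replication and G2 and M phase lists are centred near 0, and the 8 CDK inhibitors have a median of -0.23.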

How the data were processed

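Total RNA from 3 control siRNA and 3 BRG1 siRNA samples was measured on single-colour Agilent arrays. Spot intensity is on a linear scale in the scanner files the authors deposited. Their headers name Agilent Feature Extraction 9.5.3.1 and design 014868 (9.5 per the submitters' processing notes), with background subtracted within arrays and no scaling between them, and the deposited value table was identical to that intensity (largest difference 0). Log2 of the processed signal minus each array's 75th percentile was computed; 1639 control spots per array and outlier spots (387 on any array) were left out, spots of a probe were averaged, and the brightest probe stood for a gene. Testing was limited to genes that were well above background on all arrays of 1 group or of both. Groups were compared with limma 3.58.1 (R 4.3.3; tests were two-sided and adjusted by Benjamini-Hochberg). Log2 differences between 2 arrays of one group had an SD of 0.232 to 0.320. The fit was tested on simulated data drawn independently for each array and without a slide effect, so that run does not bear on the slides.

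Genes and lists were chosen with earlier results of these data known. Values on every array are given for each gene past the threshold and for a fixed set of core regulators, others by their change; other lists give up to 4 called genes with the largest change, of which 1 gene is not reported here. Names matched RefSeq by accession for 46 genes and by symbol for 8. Promoters were searched in Python 3.11.15 and figures drawn with matplotlib 3.10.9. Alternatives were other scalings, filters, probe summaries, slide and replicate blocks, limma settings, the value table and leaving out each array.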

Additional observations from a re-analysis of the deposited data

How the results depend on the processing

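The 16 called genes were refitted under 22 other settings, of which the scalings are given first. Values here are log2 medians of a gene group unless a count or a gene is named, and a median counts as moved when it shifted by more than the SD of that median between replicate arrays; the cause of these shifts was not tested. With normexp and quantile normalization the medians were -0.0079 for all 53 genes, -0.0096 for B-type cyclins with Ccnf, 0.021 for transcription cyclins, -0.19 for other cyclins, 0.015 (0.0145) for CDKs outside the cycle, -0.056 for repressor and atypical E2Fs, 0.039 for replication genes, 0.020 for G2 and M phase genes and 0.099 for checkpoint and ligase genes, and Ccne1 and Pcna turned to 0.041 and 0.013. With normexp and the 75th percentile they were -0.06 (-0.0595), -0.078, 0.0015, -0.20 and -0.0025 for the first 5 of these, -0.19 for activator E2Fs, -0.063 for repressor and atypical E2Fs, -0.21 for dividing-cell markers and mitotic kinases and 0.039 for checkpoint and ligase genes, and Ccna2, Cdc2a and Rb1 turned to -0.0048, -0.0031 and -0.0074. Quantile normalization gave -0.0075 for all 53, -0.09 (-0.0895) for B-type cyclins with Ccnf, -0.22 for other cyclins, 0.12 for cell cycle CDKs, -0.078 for dividing-cell markers, 0.055 (0.0545) for replication genes and 0.012 for G2 and M phase genes, with Ccne1, Tfdp1 and Pcna at 0.10, 0.036 and 0.0089.

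Median scaling called 1734 genes, 2031 probes, 3 members and 5 member probes. Its medians were 0.016 for all 53, -0.35 for D-type, -0.079 for E- and A-type and -0.093 for B-type cyclins, 0.11 for transcription cyclins, -0.18 for other cyclins, 0.11 for cell cycle and 0.018 for other CDKs, -0.036 for repressor and atypical E2Fs, 0.06 (0.0605) for the DP and RB family, -0.13 for dividing-cell markers, 0.066 for replication, 0.017 for G2 and M phase, -0.18 for CDK inhibitors and 0.12 for checkpoint genes, with Ccne1 and Tfdp1 at 0.050 and 0.021. Spike-in scaling called 8 members, 7 higher and 1 lower against 5 and 11, and 15 member probes. Its medians were 0.16 for all 53, -0.20 for D-type, 0.068 for E- and A-type and 0.054 for B-type cyclins, 0.26 for transcription cyclins, -0.036 for other cyclins, 0.26 for cell cycle and 0.16 for other CDKs, 0.076 for activator and 0.11 for repressor and atypical E2Fs, 0.21 for the DP and RB family, 0.28 for CDC25s and WEE1, 0.018 for dividing-cell markers, 0.21 for replication, 0.16 for G2 and M phase, -0.030 for CDK inhibitors and 0.27 for checkpoint genes. The genes that changed sign under it were Ccnb2 (0.022), Ccng1 (0.01), Plk1 (0.018), Ccne1 (0.20), Ccnb1 (0.054), E2f2 (0.034), E2f3 (0.076), E2f4 (0.11), E2f6 (0.035), E2f7 (0.098), Tfdp1 (0.17), Pcna (0.11) and Mki67 (0.056).

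With no filter on dim probes 1740 genes, 1856 probes, 5 members and 7 member probes were called, and the B-type median was -0.014. With the slide as a fixed block 1392 genes, 1267 probes, 4 members and 6 member probes were called. On the first slide alone 123 genes, 0 probes, 0 members and 0 member probes passed with limma, and Smarca4 was at -0.54 (adjusted p = 0.0627). Both gave medians of -0.07 for all 53, -0.20 for B-type, 0.10 for transcription and -0.22 for other cyclins, -0.07 for other CDKs, -0.20 for activator and -0.0073 for repressor and atypical E2Fs, -0.034 for the DP and RB family, -0.03 (-0.0315) for replication, -0.067 for G2 and M phase and 0.034 for checkpoint genes, with E2f4 at 0.021, E2f5 at -0.0073 and Rb1 at -0.056. The mean over probes, dim ones included, called 2585 genes and gave -0.08 (-0.0815) for E- and A-type cyclins, 0.015 for transcription cyclins, 0.0014 for cell cycle and -0.0056 for other CDKs, 0.047 for the DP and RB family and -0.011 for G2 and M phase genes, with Cdk2 at -0.076, Ccne1 at 0.14, E2f5 at -0.09 (-0.0925), E2f7 at 0.069 and E2f8 at -0.50. Array weights called 6946 genes, 9013 probes and 37 member probes, with medians of -0.068 for all 53, 0.088 for transcription and -0.27 for other cyclins, -0.080 for other CDKs, 0.019 for CDC25s and WEE1, -0.0019 for replication and -0.20 for CDK inhibitors, and Ccne1 at 0.030.

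The replicate numbers of the labels as a block called 1945 genes, 2150 probes, 6 members and 8 member probes; the deviations of arrays with the same number correlated at -0.31, 0.105 and -0.0178, not every array correlated best with its own number, and the arrays share only a number. Leaving out 1 array gave 1668 to 4416 genes, 1655 to 5709 probes, 5 to 13 members and 6 to 21 member probes called. The medians then ran from -0.073 to -0.028 for all 53, -0.25 to -0.20 for other cyclins, -0.097 to -0.036 for repressor and atypical E2Fs, -0.020 to 0.047 for the DP and RB family, -0.0090 to 0.020 for replication, 0.046 to 0.065 for checkpoint genes, -0.085 to -0.0021 for other CDKs, 0.025 to 0.15 for CDC25s and WEE1, 0.03 (0.0345) to 0.095 for transcription cyclins and -0.26 to -0.20 for CDK inhibitors. Changes near 0 took both signs: Ccne1 -0.032 to 0.054, Cdc2a -0.016 to 0.069, Rb1 -0.020 to 0.047, E2f8 -0.025 to 0.049 and Ccna2 -0.0002 to 0.067. The stricter filter, the random slide block and the deposited value table kept all 16 calls, but the filter and the value table could hardly change them. The value table held the same intensities, and every called gene was well above background on all 6 arrays. The random slide block called 4142 genes, of which 4139 were also called in the fit as reported. How far that block could change a call was not tested. The 4 widest standard errors among the 53 were those of Ccnj (0.22), Ccna1 (0.21), Cdc25b (0.16) and Ccnk (0.15).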
